A study of Homo sapiens with 8 samples.

Results

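The response of lung cancer cells to added miR-29a-3p was compared between lines labelled A549 and H1299, gene by gene. The series looked for genes that this microRNA may target, and the comparison asks which genes answered differently in the 2 lines. The members were all genes with at least 1 FPKM (fragments scaled to the length of the transcript and to the depth of the library) in at least 2 of the 8 libraries, which held for 14635 of the 31461 genes listed for either line. For each gene, the response is the mean log2(FPKM + 1) with miR-29a-3p minus that of the control in the same line. The difference of responses is the A549-labelled response minus the H1299-labelled response. A positive difference therefore means that the gene ended relatively higher in the A549-labelled cells, through a larger rise or a smaller fall there. A difference or response was called at an adjusted p under 0.05 from limma, with the Benjamini-Hochberg correction taken across the 14635 genes.

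RNA was sequenced from 4 groups of 2 libraries each: A549 cells with a control microRNA (miR-ctrl), A549 cells with miR-29a-3p, H1299 cells with the control and H1299 cells with miR-29a-3p. A549 is an established human lung adenocarcinoma line and NCI-H1299 an established non-small cell lung cancer line from a lymph node metastasis. Every group is labelled with genotype WT, and the microRNAs were introduced by transfection per the series' design text. The sources used here do not give the dose, the time after transfection or whether the 2 libraries of a group came from separate cultures. The p-values therefore measure the spread between libraries alone, and that spread may be technical.

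MicroRNAs are short RNAs that guide Argonaute proteins to messenger RNAs, mostly through pairing of the seed near their 5′ end with sites in the 3′ untranslated region (UTR), which lowers the level or translation of the message. The miR-29 family is best known for lowering collagens and other matrix genes and the DNA methyltransferases DNMT3A and DNMT3B, and it has been studied as a brake on growth and invasion of lung cancer cells. Levels of messages without a match can change too, through the proteins whose messages are matched.

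The line labels went against marker genes, so the names below are those of the labels and each direction holds for the labels only. CDKN2A, which is deleted in A549, read 23.8 and 24.8 FPKM in the A549-labelled controls and 0.0513 and 0.112 in the H1299-labelled controls. ALDH1A1, known as high in A549, read 57.7 and 60.8 FPKM in the A549-labelled controls against 809 and 785 in the H1299-labelled controls. Of the other genes listed as A549 markers, ALDH3A1, AKR1C1, AKR1C2, AKR1B10, KRT81 and CPS1 were also higher in the H1299-labelled controls, without overlap. GPX2 overlapped, and SFTPB and NAPSA were under the filter. If the names were exchanged, every difference of responses given here would change sign and keep its size and test.

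The 8 libraries held between 12221310 and 15614821 fragments as estimated from the smallest steps of their FPKM values, and 12021 to 12837 genes reached 1 FPKM in each. Replicates differed by a median of 0.0787 to 0.0878 on the log2(FPKM + 1) scale. Mitochondrial messages took 12.1% or less of all FPKM in the A549-labelled libraries, 15.1% in both H1299-labelled controls and 17.7% to 18.4% in the H1299-labelled miR-29a-3p libraries. Summed over 9 genes, fibroblast markers reached 0.366 to 0.585 FPKM in A549-labelled and 2.56 to 4.27 FPKM in H1299-labelled libraries, and over 6 genes endothelial markers reached 0.208 to 0.432 FPKM.

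The sequence of the transfected microRNA is shown first because its seed defines the matches counted further on. It is the RefSeq mature sequence (GRCh38.p14, chr7:130876748-130876769, minus strand), with the seed, bases 2 to 8, in capitals.
miR-29a-3p: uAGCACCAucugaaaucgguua

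The next sequences are stretches of 22 bases that end in a seed match, from the 3′ UTRs of genes whose response differed between the lines (GRCh38, GENCODE release 29, longest protein-coding 3′ UTR). They are shown because the same match stands in genes that fell in both lines and in genes called in opposite directions. Capitals mark the match, TGGTGCTA for an 8mer and TGGTGCT for a 7mer-m8. The first 4 fell in both lines and fell further in the H1299-labelled cells.
CLDN1 (chr3:190306632-190306653, minus): ctggatttgagtctTGGTGCTA
COL5A2 (chr2:189032873-189032894, minus): ttttcctttaatgaTGGTGCTA
KRT80 (chr12:52169784-52169805, minus): aagagggtgctgatTGGTGCTt
SLC2A3 (chr12:7919821-7919842, minus): tccctttcccttctTGGTGCTt

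The next 5 fell in the A549-labelled cells and rose in the H1299-labelled cells.
MYBL2 (chr20:43716266-43716287, plus): ctgtgggcggctccTGGTGCTA
DNMT3B (chr20:32809091-32809112, plus): tttactcttcttacTGGTGCTA
ID1 (chr20:31606368-31606389, plus): aaaatggtcacgttTGGTGCTt
INSIG1 (chr7:155308647-155308668, plus): aggaggtaggttgaTGGTGCTt
NID1 (chr1:235977369-235977390, minus): ttaatgttttgtttTGGTGCTc

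The last 3 rose in the A549-labelled cells and fell in the H1299-labelled cells.
TRIB3 (chr20:397043-397064, plus): gcctccactgatgcTGGTGCTc
STC2 (chr5:173317431-173317452, minus): ggtgcagcagcctcTGGTGCTg
HSPA5 (chr9:125235493-125235514, minus): aataaaggacaggcTGGTGCTA

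The difference of responses was called for 5464 of 14635 genes, 37.3%. The response was higher in the A549-labelled libraries for 2650 genes (18.1%) and higher in the H1299-labelled libraries for 2814 (19.2%). Below, a gene counted as higher in a line is one whose response, and not its level, was called higher there. These shares of all genes tested stand beside the counts of every list. A called difference of at least 2-fold was found for 977 genes (6.68%), 415 higher in A549-labelled and 562 higher in H1299-labelled. Over all genes tested the median size of the difference was 0.31 on the log2 scale, the median standard error was 0.12, and the median difference with its sign was 0.0041.

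The responses themselves were of unequal size. In the A549-labelled libraries 2336 genes were called (16.0%), 1068 up (7.30%) and 1268 down (8.66%). In the H1299-labelled libraries 7312 genes were called (50.0%), 3677 up (25.1%) and 3635 down (24.8%). The rises and falls counted in each list below stand beside these shares. The median size of a response was 0.14 in A549-labelled and 0.28 in H1299-labelled libraries. Of the 5464 genes with a called difference, 4526 (82.8%) had the larger response in the H1299-labelled cells and 938 (17.2%) in the A549-labelled cells.

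Sorted by what each line did, 3796 of the 5464 genes (69.5%) had a response called in the H1299-labelled libraries and not in the A549-labelled ones, 2004 of them up and 1792 down. The reverse, called in A549-labelled and not in H1299-labelled, held for 484 (8.86%), 250 up and 234 down. Without A549-labelled control replicates 1 and 2 and miR-29a-3p replicates 1 and 2 in turn, this class held 313, 257, 268 and 282 genes. Responses called in opposite directions were found for 551 genes (10.1%): 251 rose in A549-labelled and fell in H1299-labelled cells, and 300 did the reverse. In 376 genes (6.88%) both responses had the same direction and unequal size, and of the 225 that fell in both, 191 fell further in H1299-labelled and 34 further in A549-labelled cells. Neither response was called for the remaining 257 (4.70%). The opposite and same-direction classes need calls in both lines. Without the same 4 libraries in turn, the opposite class held 250, 221, 257 and 277 genes and the same-direction class 165 to 193. Without H1299-labelled miR-29a-3p replicate 2 the same-direction class held 244.

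**Figure D1:**
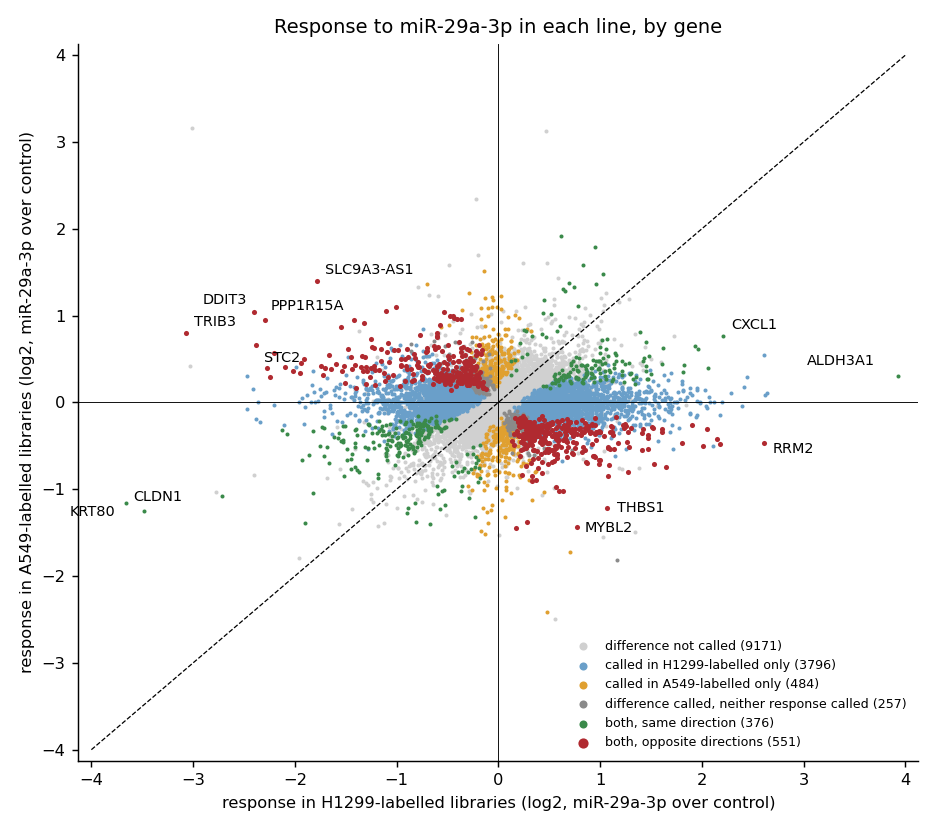
Each point is 1 of the 14635 genes tested, with the H1299-labelled response across and the A549-labelled response up (log2, miR-29a-3p over control), and colours give the class of the called difference, counted in the key. The cloud is wider across than up, the 551 red points lie in the quadrants of opposite sign, and TRIB3, DDIT3, RRM2, CLDN1 and KRT80 lie far from the dashed line of equal responses.

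Among genes with at least 5 FPKM in 1 group and no overlap between control and treated libraries in at least 1 line, the largest positive difference belonged to TRIB3 (chr20:362835-397559, plus), a pseudokinase that is a late target of the stress factors ATF4 and CHOP. TRIB3 read 8.88 and 8.48 FPKM in the A549-labelled controls, 16.9 and 14.9 with miR-29a-3p there, 144 and 135 in the H1299-labelled controls and 15.5 and 15.97 with miR-29a-3p there. The groups did not overlap within either line: the A549-labelled response was 0.80 and the H1299-labelled response -3.07. The difference was 3.87 ± 0.097 (limma adjusted p = 1.44e-05). With miR-29a-3p the lines stood at nearly the same TRIB3 level, from a gap of -3.86 on the log2 scale in the controls to 0.012.

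DDIT3 (chr12:57516588-57521737, minus), which encodes CHOP, read 3.98 and 3.58 FPKM in the A549-labelled controls, 8.33 and 9.27 with miR-29a-3p there, 20.04 and 21.2 in the H1299-labelled controls and 2.88 and 3.30 with miR-29a-3p there. It thus crossed over, since the H1299-labelled level was above the A549-labelled one in the controls and below it with miR-29a-3p. The difference was 3.44 ± 0.12 (limma adjusted p = 4.12e-05). DDIT3 overlaps MARS1 and MBD6 on the other strand, and the sources used here do not give the strand use of the counting. PPP1R15A, the stress-induced phosphatase subunit GADD34, read 19.3 and 19.05 FPKM in the A549-labelled controls, 37.7 and 38.2 with miR-29a-3p there, 219 and 219 in the H1299-labelled controls and 42.7 and 45.1 with miR-29a-3p there, a difference of 3.24 ± 0.059. STC2, a secreted glycoprotein induced by stress of the endoplasmic reticulum (ER), read 3.60 and 3.59 FPKM in the A549-labelled controls, 6.16 and 6.42 with miR-29a-3p there, 165 and 164 in the H1299-labelled controls and 30.3 and 31.1 with miR-29a-3p there, a difference of 3.05 ± 0.060.

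Also among the 10 highest by the same rule were SLC9A3-AS1 (3.18), BEX2 (2.78), UPP1 (2.78), DUSP1 (2.67) and UAP1L1 (2.56), all on the log2 scale. SLC9A3-AS1 is an antisense RNA of SLC9A3, so its reads cannot be told from those of its partner without strand. UPP1, the uridine phosphorylase, read 3.39 and 2.82 FPKM in the A549-labelled controls, 4.85 and 5.29 with miR-29a-3p there, 22.2 and 21.01 in the H1299-labelled controls and 3.82 and 3.95 with miR-29a-3p there. In UPP1, DUSP1 and SLC9A3-AS1 the 2 responses were called with opposite signs, while BEX2 and UAP1L1 were called in H1299-labelled cells and not in A549-labelled ones.

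The largest negative difference under that rule belonged to ALDH3A1 (chr17:19737984-19748943, minus), an aldehyde dehydrogenase of xenobiotic defence. ALDH3A1 read 16.5 and 17.2 FPKM in the A549-labelled controls, 22.4 and 19.9 with miR-29a-3p there, 37.1 and 38.9 in the H1299-labelled controls and 599.9 and 588 with miR-29a-3p there. It rose in both lines without overlap between control and treated libraries, by 0.31 and 3.93, and the difference was -3.62 ± 0.088 (limma adjusted p = 1.44e-05). ALDH3A1 is also one of the marker genes that went against the labels.

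RRM2 (chr2:10120698-10131419, plus), the regulatory subunit of ribonucleotide reductase, read 16.1 and 17.3 FPKM in the A549-labelled controls, 11.7 and 11.98 with miR-29a-3p there, 0.671 and 0.806 in the H1299-labelled controls and 9.94 and 9.35 with miR-29a-3p there. The H1299-labelled controls were the only libraries under 1 FPKM, and the difference was -3.08 ± 0.092 (limma adjusted p = 3.42e-05). HSPA8, the constitutive heat shock cognate HSC70, read 154 and 139 FPKM in the A549-labelled controls, 169 and 148 with miR-29a-3p there, 13.4 and 13.6 in the H1299-labelled controls and 89.2 and 89.2 with miR-29a-3p there, with a difference of -2.53 ± 0.11. MT1X, a metal-binding metallothionein, read 17.9 and 17.9 FPKM in the A549-labelled controls, 13.8 and 12.5 with miR-29a-3p there, 8.13 and 7.41 in the H1299-labelled controls and 37.3 and 38.2 with miR-29a-3p there, and the difference was -2.56 ± 0.091.

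Among the 10 lowest were also TK1 (-2.51), SCARA3 (-2.65), HSPA2 (-2.62) and TNFSF14 (-2.53). TNFSF14 reached 1 FPKM in the H1299-labelled miR-29a-3p libraries alone (8.46 and 7.63). It passed the filter through that group, so no weight is put on its place here. HSPA2 had a standard error of 0.55, with 2.07 and 0.361 FPKM in the H1299-labelled controls. TGOLN2 and IER2 were also among the 10 lowest, with larger errors still, -2.99 ± 0.85 and -2.89 ± 0.87. TGOLN2 read 24.1 and 4.77 FPKM in the H1299-labelled miR-29a-3p pair, so 1 library carried its level, and the call was lost when any 1 of the 6 libraries of the other groups was left out (limma adjusted p up to 0.0939). IER2 read 3.12 and 15.7 FPKM in the same pair, and its call was lost in 8 of the settings tried (limma adjusted p up to 0.115).

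The integrated stress response is the programme by which phosphorylation of the initiation factor eIF2 slows translation while the transcription factor ATF4 is made, which then drives genes for amino acid supply, transfer RNA charging and, later, CHOP and TRIB3. All 22 genes of this list were tested. The difference was called higher in A549-labelled for 19 and higher in H1299-labelled for 0, beside 18.1% and 19.2% of all genes tested, and its median was 1.52 beside 0.0041. In the A549-labelled cells 17 of the 22 rose and 0 fell. In the H1299-labelled cells 15 fell and 3 rose, and 13 genes were called in opposite directions.

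ATF4 itself read 60.03 and 60.7 FPKM in the A549-labelled controls, 80.6 and 72.3 with miR-29a-3p there, 152 and 143 in the H1299-labelled controls and 94.2 and 95.8 with miR-29a-3p there. It rose in the first pair and fell in the second without overlap, with a difference of 0.96 ± 0.085 (limma adjusted p = 0.000494). ASNS, the asparagine synthetase, read 8.82 and 7.96 FPKM in the A549-labelled controls, 16.7 and 16.7 with miR-29a-3p there, 13.9 and 14.5 in the H1299-labelled controls and 5.08 and 5.06 with miR-29a-3p there, a difference of 2.24 ± 0.083. CEBPG, a dimer partner of ATF4, read 29.8 and 31.7 FPKM in the A549-labelled controls, 48.3 and 52.02 with miR-29a-3p there, 63.4 and 62.1 in the H1299-labelled controls and 28.6 and 29.4 with miR-29a-3p there, a difference of 1.78 ± 0.077. ASNS crossed over between the lines as DDIT3 did, and CEBPG did so too.

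The transfer RNA synthetases of the list moved in the same way. AARS1, for alanine, read 45.7 and 42.5 FPKM in the A549-labelled controls, 59.4 and 56.6 with miR-29a-3p there, 173 and 164 in the H1299-labelled controls and 53.9 and 52.8 with miR-29a-3p there, with a difference of 2.03 ± 0.074. CARS1, for cysteine, differed by 1.37 ± 0.082 and WARS1, for tryptophan, by 1.39 ± 0.098. Each of the 3 rose in A549-labelled and fell in H1299-labelled cells.

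Further members were far higher in the H1299-labelled controls and fell there. CEBPB, a transcription factor of stress and inflammation, read 11.1 and 10.3 FPKM in the A549-labelled controls, 11.1 and 11.7 with miR-29a-3p there, 367 and 379 in the H1299-labelled controls and 80.2 and 127 with miR-29a-3p there, and its A549-labelled response was not called (0.089, limma adjusted p = 0.800). GDF15, a secreted stress cytokine, read 2.34 and 1.90 FPKM in the A549-labelled controls, 3.28 and 4.47 with miR-29a-3p there, 211 and 209 in the H1299-labelled controls and 86.2 and 89.7 with miR-29a-3p there, a difference of 1.88 ± 0.17. NUPR1, a stress-induced nuclear protein, differed by 1.71 ± 0.15.

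A further set differed by a rise in the A549-labelled cells. CHAC1, which degrades glutathione, read 2.70 and 2.61 FPKM in the A549-labelled controls, 9.85 and 9.07 with miR-29a-3p there, 2.55 and 2.94 in the H1299-labelled controls and 2.55 and 2.23 with miR-29a-3p there; the H1299-labelled response was -0.14 and not called. DDIT4, an inhibitor of mTORC1 signalling, read 28.8 and 27.3 FPKM in the A549-labelled controls, 59.9 and 62.98 with miR-29a-3p there, 252 and 224 in the H1299-labelled controls and 224 and 231 with miR-29a-3p there, a difference of 1.17 ± 0.092. JDP2, a factor of the AP-1 group, differed by 0.56 ± 0.12. SESN2, a leucine sensor upstream of mTORC1, rose in both lines, by 1.92 and 0.61.

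The 3 genes of the list without a called difference were ATF5 (-0.39), TSPYL2 (-0.35) and ATF3 (1.29 ± 0.63). ATF3 replicates were far apart, at 3.66 and 1.72 FPKM in the A549-labelled and 3.004 and 6.46 FPKM in the H1299-labelled miR-29a-3p libraries. Over the settings tried, 15 to 19 members were higher in A549-labelled and 0 to 1 higher in H1299-labelled.

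**Figure D2:**
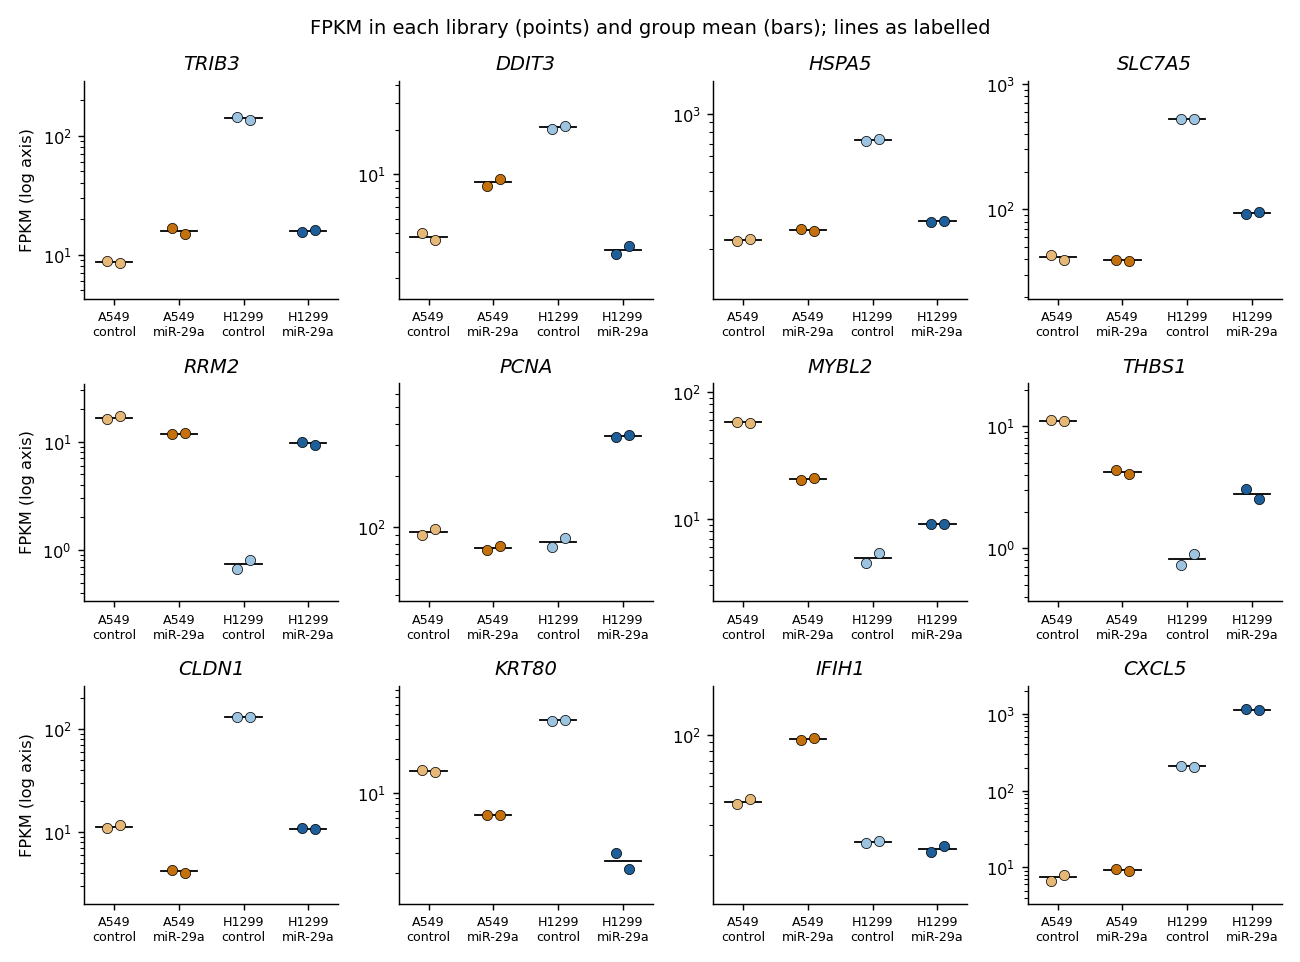
FPKM of 12 genes in the 8 libraries (log axes, points are libraries, bars are group means, lines as labelled). TRIB3 and HSPA5 end near one level with miR-29a-3p, RRM2 and PCNA are higher with it in the H1299-labelled pair, and CLDN1 and KRT80 are lower with it in both lines.

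The ER chaperones and the unfolded protein response, which sense and fold client proteins of the secretory pathway through IRE1, PERK and ATF6, leaned the same way. Of 24 genes, all tested, 20 had a response called higher in A549-labelled and 0 in H1299-labelled, with a median difference of 0.63. Here the H1299-labelled cells carried most of it: 20 members fell and 0 rose there, while in A549-labelled cells 7 rose and 3 fell.

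HSPA5 (chr9:125234853-125241330, minus), the master ER chaperone BiP, read 220.4 and 224 FPKM in the A549-labelled controls, 254 and 247 with miR-29a-3p there, 726 and 737 in the H1299-labelled controls and 276 and 277 with miR-29a-3p there. The responses were -1.40 in H1299-labelled and 0.17 in A549-labelled cells, a difference of 1.57 ± 0.048 (limma adjusted p = 3.42e-05). HYOU1, its exchange factor, read 12.1 and 11.9 FPKM in the A549-labelled controls, 18.4 and 15.2 with miR-29a-3p there, 39.7 and 39.8 in the H1299-labelled controls and 9.59 and 9.61 with miR-29a-3p there, a difference of 2.40 ± 0.12. ERN1, the sensor IRE1, read 2.31 and 2.40 FPKM in the A549-labelled controls, 3.73 and 3.37 with miR-29a-3p there, 27.4 and 28.1 in the H1299-labelled controls and 8.66 and 8.40 with miR-29a-3p there, a difference of 2.03 ± 0.082.

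XBP1, whose message IRE1 splices, differed by 1.37 ± 0.29, and its replicates were apart in the H1299-labelled miR-29a-3p pair (8.37 and 5.54 FPKM). HSP90B1, the ER form of HSP90, fell from 248 and 245 to 119.8 and 120.4 FPKM in H1299-labelled libraries and read 81.9 and 86.99 and then 82.1 and 83.2 FPKM in the A549-labelled ones, a difference of 1.002 ± 0.058. ATF6 itself differed by 0.76 ± 0.084 and CRELD2 by 1.06 ± 0.075. The members with no called difference were SEC61B, SELENOK, CREB3L2 and MANF, between -0.087 and 0.085.

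Amino acid transporters, several of them ATF4 targets, were counted in 17 of the 21 listed genes, the other 4 being under the filter. The difference was higher in A549-labelled for 10 and in H1299-labelled for 3, with a median of 0.67, or 1.52 over the 8 genes with a mean of at least 5 FPKM. SLC7A5 (chr16:87830023-87869488, minus), the large neutral amino acid carrier LAT1, read 43.4 and 39.5 FPKM in the A549-labelled controls, 39.9 and 38.9 with miR-29a-3p there, 526 and 523 in the H1299-labelled controls and 92.7 and 94.8 with miR-29a-3p there. The A549-labelled libraries overlapped between control and treated, and the difference was 2.40 ± 0.073 (limma adjusted p = 3.42e-05).

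SLC3A2, the heavy chain that pairs with SLC7A5, read 9.23 and 8.26 FPKM in the A549-labelled controls, 12.1 and 11.7 with miR-29a-3p there, 62.1 and 60.5 in the H1299-labelled controls and 13.3 and 13.8 with miR-29a-3p there, a difference of 2.50 ± 0.086. SLC7A1, for cationic amino acids, read 11.6 and 11.3 FPKM in the A549-labelled controls, 16.99 and 16.9 with miR-29a-3p there, 33.1 and 32.96 in the H1299-labelled controls and 12.6 and 12.7 with miR-29a-3p there, a difference of 1.84 ± 0.058. SLC38A1 and SLC1A5, for glutamine, differed by 1.73 ± 0.076 and 1.30 ± 0.15. The 3 members that went the other way were SLC43A2 (-1.16), SLC1A1 (-0.83) and SLC36A1 (-0.40), and SLC43A2 and SLC1A1 stayed under 3 FPKM in every library.

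In serine, asparagine and one-carbon synthesis 16 of 17 genes were tested, 9 higher in A549-labelled and 5 in H1299-labelled, with a median of 0.50. PHGDH, the first enzyme of serine synthesis, read 10.8 and 11.03 FPKM in the A549-labelled controls, 17.97 and 15.3 with miR-29a-3p there, 16.5 and 18.1 in the H1299-labelled controls and 9.28 and 9.33 with miR-29a-3p there, a difference of 1.39 ± 0.12. PSAT1, the next enzyme, differed by 0.76 ± 0.069, and the mitochondrial folate enzymes ALDH1L2 and MTHFD2 by 1.82 ± 0.080 and 1.04 ± 0.14. The 5 in the other direction included TYMS, SHMT1, MTHFD1 and ALDH18A1, between -1.96 and -0.30. TYMS, which makes thymidylate for DNA, also stands in the replication list.

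Since several of these genes answer to ATF4, promoters were searched for its composite element, CARE, as TGATGNAA on either strand, in RefSeq promoters of GRCh38.p14 from 250 bases before to 50 bases after each start. A match was found for 7 of the 21 genes of the stress list with a promoter in the table (33.3%), 260 of 9870 genes tested (2.63%) and 1217 of all 27305 genes (4.46%). Among genes whose response was higher in A549-labelled it was 75 of 1913 (3.92%), and among those higher in H1299-labelled 53 of 2077 (2.55%). No share was tested against another, and a match is no evidence of binding. The stress list gathers genes of the ATF4 programme, so a high share there is built in and says nothing about the lines. For 5 of the 7 genes, a match is printed that lies with its flanks in the 250 bases before the start. Each has 10 bases on each side and the match in capitals, to show how the letter N and the strand vary. ATF3, one of the 5, had no called difference.
AARS1 (chr16:70289676-70289703, minus): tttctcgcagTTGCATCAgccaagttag
ASNS (chr7:97872459-97872486, minus): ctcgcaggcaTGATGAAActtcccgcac
ATF3 (chr1:212565206-212565233, plus): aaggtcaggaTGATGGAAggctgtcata
CEBPG (chr19:33374061-33374088, plus): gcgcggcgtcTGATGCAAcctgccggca
CHAC1 (chr15:40953252-40953279, plus): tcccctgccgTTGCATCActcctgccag

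DNA replication and nucleotide synthesis went the other way. The list covers the MCM helicase, its GINS and CDC45 partners, the polymerases, the clamp PCNA with its RFC loaders, and the enzymes that supply deoxynucleotides, all of which cells raise as they enter S phase. All 46 genes were tested: the difference was higher in H1299-labelled for 44 and in A549-labelled for 0, with a median of -1.15 beside 0.0041 for all genes. In the H1299-labelled cells 44 rose and 0 fell. In the A549-labelled cells 14 fell and 0 rose, so 13 genes were called in opposite directions.

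PCNA (chr20:5114953-5126626, minus), the sliding clamp of the polymerases, read 89.6 and 97.6 FPKM in the A549-labelled controls, 73.7 and 77.2 with miR-29a-3p there, 76.2 and 86.5 in the H1299-labelled controls and 334 and 345 with miR-29a-3p there. The control libraries of the 2 lines lay close to each other, and the treated H1299-labelled pair stood far above all others. The difference was -2.36 ± 0.10 (limma adjusted p = 6.24e-05). TK1, the thymidine kinase of S phase, read 34.9 and 35.6 FPKM in the A549-labelled controls, 26.3 and 23.1 with miR-29a-3p there, 4.80 and 3.52 in the H1299-labelled controls and 19.96 and 19.2 with miR-29a-3p there, and TYMS, the thymidylate synthase, differed by -1.96 ± 0.15.

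The helicase and its loaders were low in the H1299-labelled controls. MCM4 read 33.1 and 32.5 FPKM in the A549-labelled controls, 31.3 and 26.99 with miR-29a-3p there, 1.94 and 1.92 in the H1299-labelled controls and 10.8 and 9.80 with miR-29a-3p there, a difference of -2.11 ± 0.11. CDT1, which loads the helicase, read 32.3 and 30.5 FPKM in the A549-labelled controls, 35.1 and 35.7 with miR-29a-3p there, 1.65 and 1.87 in the H1299-labelled controls and 9.77 and 8.53 with miR-29a-3p there, a difference of -1.71 ± 0.11. E2F1, the transcription factor of the G1 to S step, read 26.8 and 27.4 FPKM in the A549-labelled controls, 29.8 and 27.8 with miR-29a-3p there, 2.33 and 1.96 in the H1299-labelled controls and 10.2 and 11.3 with miR-29a-3p there, a difference of -1.81 ± 0.11. In MCM4, CDT1 and E2F1 the A549-labelled responses were not called, and the treated H1299-labelled pair stayed under every A549-labelled library.

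The MCM subunits differed in size of the effect, from -2.11 for MCM4 to -0.52 for MCM2, with MCM6 at -1.50, MCM3 at -1.49, MCM5 at -1.41 and MCM7 at -0.56. LIG1, which joins Okazaki fragments, rose from 2.42 and 2.44 to 9.21 and 9.68 FPKM in H1299-labelled and fell from 6.93 and 6.64 to 5.23 and 5.34 FPKM in A549-labelled libraries, a difference of -1.91 ± 0.074. RPA1, of the single-strand binding complex, was the exception among the called genes: it fell in A549-labelled cells (-0.83) and its H1299-labelled response was not called (-0.10). RFC1 and POLD2 had no called difference, at -0.23 ± 0.11 and -0.22 ± 0.089.

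Genes of mitosis and G2/M followed only in part. Of 39, all tested, 22 had a response called higher in H1299-labelled and 1 in A549-labelled, with a median of -0.41. In A549-labelled cells 20 fell and 0 rose, beside 8.66% and 7.30% of all genes tested. In H1299-labelled cells 13 rose and 7 fell, beside 25.1% and 24.8%. MYBL2 (chr20:43667019-43716496, plus), a factor that turns on late cell cycle genes, read 58.4 and 57.2 FPKM in the A549-labelled controls, 20.4 and 20.97 with miR-29a-3p there, 4.50 and 5.42 in the H1299-labelled controls and 9.06 and 9.19 with miR-29a-3p there, a difference of -2.21 ± 0.11 (limma adjusted p = 8.65e-05). SPC25, of the kinetochore, read 13.9 and 15.3 FPKM in the A549-labelled controls, 7.96 and 9.24 with miR-29a-3p there, 0.839 and 0.371 in the H1299-labelled controls and 3.67 and 3.49 with miR-29a-3p there, a difference of -2.23 ± 0.20.

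KIF20A, KIF4A and KIF23, motor proteins of the spindle, and CCNA2, cyclin A, were also called in opposite directions, with differences between -1.33 and -0.50. Core mitotic regulators had no called difference: CCNB1 was at -0.12 ± 0.099, CCNB2 at 0.062 ± 0.089, PLK1 at 0.062 ± 0.21, AURKA at -0.097 ± 0.097 and BUB1 at 0.095 ± 0.070. CCNB1, CCNB2 and PLK1 fell in both lines. MKI67, the proliferation marker, had replicates far apart, at 25.9 and 8.47 FPKM in the A549-labelled controls, and a difference of -0.15 ± 0.61. CDC25B, an activator of cyclin-dependent kinases, was the single gene with a response called higher in A549-labelled (0.89 ± 0.13) and fell in both lines.

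Cholesterol synthesis is run by SREBP2 from acetyl-CoA through mevalonate to sterols. The response was called higher in H1299-labelled for 16 of 24 genes, all tested, and in A549-labelled for 0, with a median of -0.64. In H1299-labelled cells 18 rose and 1 fell, and in A549-labelled cells 3 rose and 3 fell. MSMO1, a sterol demethylase, rose in both and read 7.32 and 7.48 FPKM in the A549-labelled controls, 11.04 and 13.3 with miR-29a-3p there, 4.43 and 4.20 in the H1299-labelled controls and 19.8 and 18.8 with miR-29a-3p there, a difference of -1.29 ± 0.12. IDI1, an isomerase of the mevalonate branch, read 25.2 and 26.4 FPKM in the A549-labelled controls, 26.7 and 29.3 with miR-29a-3p there, 5.18 and 5.37 in the H1299-labelled controls and 14.9 and 15.02 with miR-29a-3p there, a difference of -1.24 ± 0.082.

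INSIG1, which holds SREBP in the ER and carries a seed match shown earlier, read 20.8 and 21.002 FPKM in the A549-labelled controls, 9.74 and 9.88 with miR-29a-3p there, 1.89 and 2.59 in the H1299-labelled controls and 3.63 and 4.14 with miR-29a-3p there. It fell in the first line and rose in the second without overlap, a difference of -1.62 ± 0.15 (limma adjusted p = 0.000602). HMGCS1, an early enzyme of the pathway, fell in A549-labelled cells (-0.80) with no called response in H1299-labelled ones. The genes without a called difference included CYP51A1 (-0.11 ± 0.17), LSS (0.15 ± 0.11) and SQLE (-0.77 ± 0.26).

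Cytosolic heat shock proteins are chaperones mostly under HSF1. Their response was called higher in H1299-labelled for 16 of 22 and higher in A549-labelled for 2, with a median of -0.76. By this difference they lay on the opposite side from the ER chaperones. HSP90AA1, the inducible cytosolic HSP90, read 353 and 365 FPKM in the A549-labelled controls, 353 and 359 with miR-29a-3p there, 41.1 and 44.2 in the H1299-labelled controls and 122 and 134 with miR-29a-3p there, a difference of -1.57 ± 0.084. HSPB1, a small heat shock protein, read 99.6 and 94.8 FPKM in the A549-labelled controls, 102 and 103 with miR-29a-3p there, 70.6 and 68.4 in the H1299-labelled controls and 175 and 184 with miR-29a-3p there, a difference of -1.28 ± 0.062. DNAJA1, a co-chaperone of HSC70, differed by -1.36 ± 0.060. The 2 in the other direction were HSPA6 (1.18) and HSPB8 (0.89), and HSPD1, HSPA4, CHORDC1 and HSF1 had no called difference.

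Among the 551 genes called in opposite directions, 6 were taken each way by the larger of their weaker responses. Of those that rose in A549-labelled and fell in H1299-labelled cells, DDIT3, PPP1R15A and SLC9A3-AS1 are given earlier. RHOB, a small GTPase of endosomes and stress, read 17.6 and 17.1 FPKM in the A549-labelled controls, 32.7 and 36.3 with miR-29a-3p there, 319 and 316 in the H1299-labelled controls and 116 and 121 with miR-29a-3p there, a difference of 2.37 ± 0.079. TMEM251 read 10.5 and 9.39 FPKM in the A549-labelled controls, 21.03 and 22.1 with miR-29a-3p there, 13.8 and 16.7 in the H1299-labelled controls and 7.19 and 5.91 with miR-29a-3p there, a difference of 2.16 ± 0.16. HES4, a repressor of the Notch target family, read 4.63 and 3.96 FPKM in the A549-labelled controls, 9.95 and 10.6 with miR-29a-3p there, 7.43 and 8.14 in the H1299-labelled controls and 2.64 and 4.25 with miR-29a-3p there, a difference of 2.10 ± 0.24.

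Of those that fell in A549-labelled and rose in H1299-labelled cells, THBS1 (chr15:39581079-39599466, plus), the matrix protein thrombospondin 1, read 11.2 and 11.02 FPKM in the A549-labelled controls, 4.42 and 4.05 with miR-29a-3p there, 0.737 and 0.907 in the H1299-labelled controls and 3.07 and 2.56 with miR-29a-3p there. The A549-labelled controls were highest and the H1299-labelled controls lowest, and the difference was -2.28 ± 0.12 (limma adjusted p = 0.000119); THBS1 overlaps FSIP1 on the other strand. ID1, an inhibitor of differentiation factors and a target of BMP signals, read 179.8 and 173 FPKM in the A549-labelled controls, 101 and 102 with miR-29a-3p there, 56.6 and 59.4 in the H1299-labelled controls and 138 and 146 with miR-29a-3p there, a difference of -2.07 ± 0.065. PCLAF, a PCNA partner, read 9.999 and 9.43 FPKM in the A549-labelled controls, 6.48 and 4.49 with miR-29a-3p there, 1.28 and 0.987 in the H1299-labelled controls and 5.17 and 6.19 with miR-29a-3p there, a difference of -2.39 ± 0.23.

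SERPINE2, a secreted protease inhibitor, read 15.6 and 18.2 FPKM in the A549-labelled controls, 9.06 and 10.8 with miR-29a-3p there, 18.2 and 20.2 in the H1299-labelled controls and 34.6 and 44.1 with miR-29a-3p there, a difference of -1.70 ± 0.20. GINS2, of the helicase, read 14.5 and 15.7 FPKM in the A549-labelled controls, 9.06 and 8.43 with miR-29a-3p there, 0.602 and 0.409 in the H1299-labelled controls and 2.08 and 2.30 with miR-29a-3p there, a difference of -1.81 ± 0.12. In ID1 the order of the lines was reversed with miR-29a-3p, in SERPINE2 the distance between them was wider, and in PCLAF the lines overlapped.

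Interferon-stimulated genes held called differences of both signs. These antiviral genes are switched on by interferon signals or by IRF3. Of 45 listed, 43 were tested: 16 had a response called higher in A549-labelled and 12 in H1299-labelled, with a median of 0.19. All genes tested gave 18.1% and 19.2%. In A549-labelled cells 30 rose and 0 fell, in H1299-labelled cells 35 rose and 1 fell, and 0 were called in opposite directions. The balance depended on the setting: it was 18 and 9 with a pseudocount of 0.1 (median 0.30), 16 and 7 with no pseudocount over 34 genes (median 0.32), 15 and 7 over the 31 genes with a mean of at least 5 FPKM, and 15 and 8 without H1299-labelled control replicate 2. The median was above 0 in every setting tried.

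IFIH1 (chr2:162267079-162318703, minus), the double-stranded RNA sensor MDA5, read 39.3 and 42.2 FPKM in the A549-labelled controls, 93.5 and 95.8 with miR-29a-3p there, 23.6 and 24.1 in the H1299-labelled controls and 20.8 and 22.5 with miR-29a-3p there. It rose in A549-labelled cells without overlap and its H1299-labelled response was not called (-0.13), a difference of 1.33 ± 0.079 (limma adjusted p = 0.000131). IFIT3, an antiviral partner of IFIT1, read 156 and 162 FPKM in the A549-labelled controls, 477 and 479 with miR-29a-3p there, 118 and 126 in the H1299-labelled controls and 219 and 217 with miR-29a-3p there, a difference of 0.75 ± 0.064. ISG15, a ubiquitin-like modifier, read 354 and 326 FPKM in the A549-labelled controls, 820.1 and 837 with miR-29a-3p there, 148 and 136 in the H1299-labelled controls and 219.8 and 227 with miR-29a-3p there, a difference of 0.63 ± 0.082. IFIT3 and ISG15 rose in both lines, further in the A549-labelled one.

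DDX58, the sensor RIG-I, USP18, which removes ISG15, and HERC5, which attaches it, also had a higher response in A549-labelled, by 0.59 ± 0.063, 0.67 ± 0.095 and 0.73 ± 0.074. On the other side, OAS1 read 0.621 and 0.479 FPKM in the A549-labelled controls, 0.848 and 0.785 with miR-29a-3p there, 8.19 and 7.56 in the H1299-labelled controls and 15.8 and 16.9 with miR-29a-3p there, a difference of -0.74 ± 0.10, and TRIM22 differed by -0.92 ± 0.098. IFI6, a mitochondrial interferon protein, rose in both lines, further in the H1299-labelled one (-0.68 ± 0.15). IFIT1 rose in both lines, by 1.15 and 1.19, with no called difference (-0.037 ± 0.066). MX1 (0.26 ± 0.086) and DDX60 (0.19 ± 0.093) also rose in both with no called difference. IFITM1 was the gene that fell, in H1299-labelled cells (-0.93).

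The interferon element was searched in the same promoters as GAAA, any 2 bases and GAAA again, on either strand. It was found for 23 of 33 genes of this list with a promoter in the table (69.7%), beside 3.87% of genes tested and 4.38% of all genes. The share was 3.76% among genes higher in A549-labelled and 3.37% among those higher in H1299-labelled. The list gathers genes that answer interferon signals, so its high share is built in, and no share was tested. A match also stood in IFIT1, MX1 and DDX60, which had no called difference, and in IFI6, which rose further in H1299-labelled cells. Its presence thus did not follow the call or its direction. The examples printed are from genes whose response was higher in A549-labelled, with the match in capitals.
IFIH1 (chr2:162318686-162318715, minus): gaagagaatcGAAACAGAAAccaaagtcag
IFIT3 (chr10:89332425-89332454, plus): acagattctgTTTCAGTTTCccctcaagag
ISG15 (chr1:1013380-1013409, plus): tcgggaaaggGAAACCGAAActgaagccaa
ISG20 (chr15:88638937-88638966, plus): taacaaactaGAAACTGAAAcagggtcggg

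Chemokines and secreted cytokines were counted in 28 of 32 genes, the other 4 being under the filter. Of these 16 had a response called higher in H1299-labelled and 5 in A549-labelled, with a median of -0.77. The median was -0.32 with no filter on low values and -0.50 with a mean of at least 5 FPKM, and with no pseudocount 14 genes were tested, 7 and 4 called, with a median of -0.52. Over 16 genes at 1 FPKM or more in 2 libraries of each line, 9 were higher in H1299-labelled and 3 in A549-labelled, with a median of -0.57. CXCL5 (chr4:73995642-73998779, minus), which attracts neutrophils, read 6.73 and 8.06 FPKM in the A549-labelled controls, 9.51 and 8.98 with miR-29a-3p there, 209.7 and 206 in the H1299-labelled controls and 1157 and 1112 with miR-29a-3p there. The A549-labelled response was not called (0.29, limma adjusted p = 0.0515) and the difference was -2.15 ± 0.11. CXCL1, of the same family, rose in both lines and read 6.38 and 6.11 FPKM in the A549-labelled controls, 12.3 and 10.4 with miR-29a-3p there, 78.5 and 76.5 in the H1299-labelled controls and 369 and 354 with miR-29a-3p there, a difference of -1.44 ± 0.11.

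CXCL10, a ligand of CXCR3 that interferon induces, read 41.6 and 45.8 FPKM in the A549-labelled controls, 29.02 and 33.5 with miR-29a-3p there, 3.38 and 3.69 in the H1299-labelled controls and 14.6 and 15.1 with miR-29a-3p there, and so fell in one line and rose in the other, a difference of -2.28 ± 0.12. CCL2, which attracts monocytes, read 1.63 and 1.43 FPKM in the A549-labelled controls, 1.44 and 1.48 with miR-29a-3p there, 2.33 and 2.12 in the H1299-labelled controls and 12.7 and 11.8 with miR-29a-3p there, a difference of -2.08 ± 0.10. CSF3, the granulocyte growth factor, differed by -2.23 ± 0.11, CXCL11 by -1.17 ± 0.12 and CCL20 by -1.03 ± 0.092. CSF3 and TNFSF14 of this list reached 1 FPKM in the H1299-labelled miR-29a-3p libraries alone. They passed the filter through that group, so no weight is put on their calls. CXCL8, interleukin 8, rose in both lines, by 0.70 and 1.45.

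The 5 on the other side were IL11, LIF, IFNL1, IL18 and CXCL2. IL11, a cytokine of the interleukin 6 family, read 0.368 and 0.453 FPKM in the A549-labelled controls, 0.846 and 0.937 with miR-29a-3p there, 81.9 and 77.6 in the H1299-labelled controls and 28.1 and 26.3 with miR-29a-3p there, a difference of 1.94 ± 0.089. LIF, of the same family, read 9.61 and 10.03 FPKM in the A549-labelled controls, 14.6 and 14.6 with miR-29a-3p there, 98.3 and 95.3 in the H1299-labelled controls and 52.6 and 51.3 with miR-29a-3p there, a difference of 1.41 ± 0.061. IFNL1, a type III interferon, fell in H1299-labelled cells from 29.4 and 27.2 to 14.1 and 15.5 FPKM. Among 9 leukocyte markers, CD68 and ITGAM reached 1 FPKM in any library, and their sum was 19.2 to 24.0 FPKM in the A549-labelled libraries, 9.30 to 9.48 FPKM in the H1299-labelled controls and 26.0 to 27.3 FPKM with miR-29a-3p there. CD68, which many cell lines also express, made up most of it, at 8.14 and 8.09 FPKM in the H1299-labelled controls and 23.5 and 24.9 FPKM with miR-29a-3p. The defining markers PTPRC and CD3E were at 0 in the other 6 libraries and at or under 0.0094 FPKM in these, and the part of such cells in the cytokine values was not tested.

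NF-kB, the transcription factor of inflammation, was followed by 18 subunits and feedback genes, all tested. The difference was higher in A549-labelled for 8 and in H1299-labelled for 1, with a median of 0.25. Without H1299-labelled control replicate 2 the median was 0.48, and with a mean of at least 5 FPKM it was 0.13. NFKB2, the p100 subunit, read 24.6 and 23.7 FPKM in the A549-labelled controls, 41.6 and 41.6 with miR-29a-3p there, 49.1 and 48.1 in the H1299-labelled controls and 31.5 and 31.7 with miR-29a-3p there, a difference of 1.36 ± 0.056 (limma adjusted p = 5.25e-05). BIRC3, an inhibitor of cell death, read 8.57 and 7.62 FPKM in the A549-labelled controls, 18.2 and 20.95 with miR-29a-3p there, 10.8 and 10.5 in the H1299-labelled controls and 9.44 and 10.99 with miR-29a-3p there, a difference of 1.23 ± 0.14. RELB, REL and NFKBIB also differed, by 0.97 ± 0.20, 0.98 ± 0.12 and 1.29 ± 0.11. ICAM1, SOD2, TNFAIP3 and NFKBIZ, target genes of the factor, rose in both lines with no called difference, between -0.21 and 0.13.

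Antigen presentation, 18 of 19 genes tested, was higher in H1299-labelled for 6 and in A549-labelled for 0, with a median of -0.22; without A549-labelled control replicate 1 or H1299-labelled control replicate 2 it was 3. In H1299-labelled cells 14 rose and 0 fell, and in A549-labelled cells 7 rose and 0 fell. TAP2, a subunit of the peptide transporter, read 11.03 and 10.9996 FPKM in the A549-labelled controls, 11.5 and 10.9 with miR-29a-3p there, 5.001 and 4.86 in the H1299-labelled controls and 9.07 and 9.23 with miR-29a-3p there, a difference of -0.75 ± 0.070. HLA-B differed by -0.23 ± 0.058, while HLA-C (-0.19 ± 0.11) and HLA-E (0.046 ± 0.053) had no called difference.

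Collagens are the best known targets of miR-29, and whether they leaned one way depended on the setting. Of 32 listed, 19 were tested, since 13 were under the filter, among them COL1A2 and COL3A1. Of these 19, 7 had a response called higher in A549-labelled and 6 in H1299-labelled, beside 18.1% and 19.2% of all genes tested. The median was 0.0100 with the deposited scaling, -0.025 after rescaling the libraries and -0.021 after quantile normalisation, so no direction can be given. With a pseudocount of 0.1, which gives low values more weight, 4 were higher in A549-labelled and 9 in H1299-labelled, with a median of -0.52. With no pseudocount, over 7 genes at 1 FPKM or more in all 8 libraries, the counts were 2 and 4, with a median of -0.52. Over 9 genes at 1 FPKM or more in 2 libraries of each line they were 3 and 5, with a median of -0.48. COL5A2 (chr2:189031896-189225312, minus), a chain of fibrillar type V collagen, read 2.14 and 2.35 FPKM in the A549-labelled controls, 0.714 and 0.378 with miR-29a-3p there, 50.03 and 59.97 in the H1299-labelled controls and 7.45 and 7.58 with miR-29a-3p there. It fell in both lines without overlap, with responses of -1.08 and -2.71, a difference of 1.63 ± 0.18 (limma adjusted p = 0.000982). The A549-labelled level was under 1 FPKM after the fall, and with a pseudocount of 0.1 the call was lost (limma adjusted p = 0.0734).

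COL4A1 and COL4A2, the main chains of basement membrane, also fell in both lines. COL4A2 read 0.814 and 0.731 FPKM in the A549-labelled controls, 0.454 and 0.329 with miR-29a-3p there, 60.2 and 60.8 in the H1299-labelled controls and 20.2 and 19.2 with miR-29a-3p there, a difference of 1.22 ± 0.091, and COL4A1 differed by 0.92 ± 0.077; both were under 1 FPKM in all A549-labelled libraries, where the log2(FPKM + 1) scale understates a change. COL6A1, of the beaded type VI collagen, read 17.8 and 17.2 FPKM in the A549-labelled controls, 10.9 and 10.8 with miR-29a-3p there, 3.37 and 3.74 in the H1299-labelled controls and 5.10 and 4.86 with miR-29a-3p there, a difference of -1.03 ± 0.083. COL6A2 and COL4A5 moved as COL6A1 did, with falls in A549-labelled and rises in H1299-labelled cells (-0.64 ± 0.067 and -0.88 ± 0.070). COL7A1, of anchoring fibrils, did the reverse (0.90 ± 0.082).

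Enzymes and chaperones of collagen maturation were tested for 21 of 25 genes: 12 higher in H1299-labelled, 2 in A549-labelled, median -0.44 (-0.14 with a mean of at least 5 FPKM). LOX, which cross-links collagen and holds 3 seed matches, read 4.70 and 4.39 FPKM in the A549-labelled controls, 1.93 and 2.30 with miR-29a-3p there, 0.815 and 0.671 in the H1299-labelled controls and 0.980 and 1.02 with miR-29a-3p there, a difference of -1.04 ± 0.12. BMP1, the procollagen C-proteinase, fell in one line and rose in the other (-0.87 ± 0.073). LOXL2, a cross-linking enzyme, fell in both lines: it read 23.5 and 23.7 FPKM in the A549-labelled controls, 5.93 and 6.26 with miR-29a-3p there, 108 and 103 in the H1299-labelled controls and 27.3 and 25.4 with miR-29a-3p there, and the difference of 0.16 ± 0.075 was not called (limma adjusted p = 0.138). SERPINH1, the collagen chaperone HSP47, also fell in both with no called difference (-0.24 ± 0.21).

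Other matrix and basement membrane proteins were tested for 27 of 35 genes: 15 higher in H1299-labelled, 3 in A549-labelled, median -0.37 (-0.088 with a mean of at least 5 FPKM). NID1, which links laminin and collagen IV, read 8.88 and 9.35 FPKM in the A549-labelled controls, 2.80 and 2.63 with miR-29a-3p there, 1.36 and 1.35 in the H1299-labelled controls and 1.69 and 1.62 with miR-29a-3p there, a difference of -1.62 ± 0.083 (limma adjusted p = 0.000101). HSPG2, the proteoglycan perlecan, read 23.3 and 20.4 FPKM in the A549-labelled controls, 11.4 and 11.1 with miR-29a-3p there, 15.5 and 15.9 in the H1299-labelled controls and 20.5 and 20.6 with miR-29a-3p there, a difference of -1.27 ± 0.094. MFAP2 and LAMA2 fell in A549-labelled cells (-1.12 and -1.18) and were at 0.165 FPKM or less in every H1299-labelled library, where a fall would not be detectable. FBN1, fibrillin 1, fell in both (-1.22 and -0.89, a difference of -0.33 ± 0.081). LAMC1, a laminin chain, fell in both (-0.72 and -0.72) with no called difference.

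Reported miR-29 targets outside the matrix were tested for 32 of 37 genes: 10 higher in each line, median -0.016, a sign that did not hold in 4 of the settings tried. The count higher in A549-labelled was 5 without A549-labelled control replicate 1, and 6 without H1299-labelled control replicate 2, without H1299-labelled miR-29a-3p replicate 1 or with no filter. DNMT3B, the de novo DNA methyltransferase, read 3.47 and 4.08 FPKM in the A549-labelled controls, 2.29 and 2.23 with miR-29a-3p there, 0.793 and 0.833 in the H1299-labelled controls and 3.56 and 4.07 with miR-29a-3p there, a difference of -1.95 ± 0.12 (limma adjusted p = 0.000153). CDK6, the G1 kinase, fell in both lines, from 26.2 and 27.8 to 9.17 and 10.2 FPKM and from 14.4 and 15.1 to 3.58 and 2.89 FPKM, a difference of 0.51 ± 0.13. TET3, KDM5B, PMP22 and SLC16A1 also fell in both and further in H1299-labelled cells, with differences between 0.27 and 0.77. CDC42, a small GTPase, and TDG, a DNA glycosylase, fell in both with no called difference, at -0.0084 ± 0.090 and 0.12 ± 0.098. TUBB2A and PDGFC fell in A549-labelled cells and had no called response in the other line.

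Of the genes that fell in both lines, KRT80, CLDN1, PPP1R3B, SLC2A3 and COL5A2 had the largest differences by the naming rule, all through the larger fall in H1299-labelled cells. CLDN1 (chr3:190305701-190322475, minus), a tight junction claudin, read 10.99 and 11.6 FPKM in the A549-labelled controls, 4.28 and 4.03 with miR-29a-3p there, 132 and 132 in the H1299-labelled controls and 10.9 and 10.8 with miR-29a-3p there. Every treated library was below every control of its line, the responses were -1.26 and -3.49, and the difference was 2.23 ± 0.069 (limma adjusted p = 3.42e-05). The treated H1299-labelled pair came down to the level of the A549-labelled controls.

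KRT80 (chr12:52168996-52192000, minus), an epithelial keratin, read 15.9 and 15.3 FPKM in the A549-labelled controls, 6.497 and 6.41 with miR-29a-3p there, 43.4 and 43.8 in the H1299-labelled controls and 2.95 and 2.14 with miR-29a-3p there, and here the treated H1299-labelled pair ended lowest of all, with a difference of 2.51 ± 0.15. KRT80 overlaps LINC00592 on the other strand. SLC2A3, the glucose transporter GLUT3, read 7.91 and 8.595 FPKM in the A549-labelled controls, 6.10 and 6.29 with miR-29a-3p there, 18.8 and 19.1 in the H1299-labelled controls and 3.68 and 3.74 with miR-29a-3p there, a difference of 1.72 ± 0.078. PPP1R3B, a glycogen-targeting phosphatase subunit, had responses of -0.32 and -2.13.

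Genes that rose in both lines and further in H1299-labelled cells were led, after ALDH3A1, by GXYLT1, CCL3, CXCL1 and KRT19. GXYLT1, a xylosyltransferase of Notch, read 8.64 and 8.92 FPKM in the A549-labelled controls, 11.2 and 12.5 with miR-29a-3p there, 2.97 and 2.76 in the H1299-labelled controls and 14.9 and 15.3 with miR-29a-3p there, a difference of -1.67 ± 0.091. CCL3, a chemokine of macrophages, read 0.381 and 0.433 FPKM in the A549-labelled controls, 0.717 and 0.869 with miR-29a-3p there, 1.87 and 1.87 in the H1299-labelled controls and 9.07 and 9.10 with miR-29a-3p there, a difference of -1.46 ± 0.094. KRT19, a simple-epithelium keratin, differed by -1.35 ± 0.092.

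Seed matches were then counted by class, over the 11630 genes tested that have a 3′ UTR in GENCODE release 29. An 8mer or 7mer-m8 match was present in 1908 of them (16.4%). The share was 106 of 218 (48.6%) among genes that fell in both lines unequally, 87 of 187 (46.5%) where the fall was larger in H1299-labelled and 19 of 31 (61.3%) where it was larger in A549-labelled. For genes that fell in both lines with no called difference it was 132 of 339 (38.9%). Among genes that rose in both unequally it was 5 of 145 (3.45%).

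The opposite class was uneven. A match was present in 67 of 278 genes (24.1%) that fell in A549-labelled and rose in H1299-labelled cells, and in 29 of 212 (13.7%) that did the reverse. Among genes that fell in A549-labelled cells with no called response in H1299-labelled ones it was 62 of 204 (30.4%), and among genes that fell in H1299-labelled cells with no called response in A549-labelled ones 264 of 1520 (17.4%). These shares describe the classes and were not tested against each other.

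Over all genes with a match, the median response was -0.093 in A549-labelled and -0.12 in H1299-labelled cells, and the median difference was 0.017. Genes with no match of 6 bases or more, 7658 in number, had median responses of 0.017 and 0.040 and a median difference of -0.021. A difference was called for 42.3% of the genes with a match and 40.4% of those without. The 401 genes with an 8mer had a median of -0.14 in A549-labelled and -0.13 in H1299-labelled cells.

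**Figure D3:**
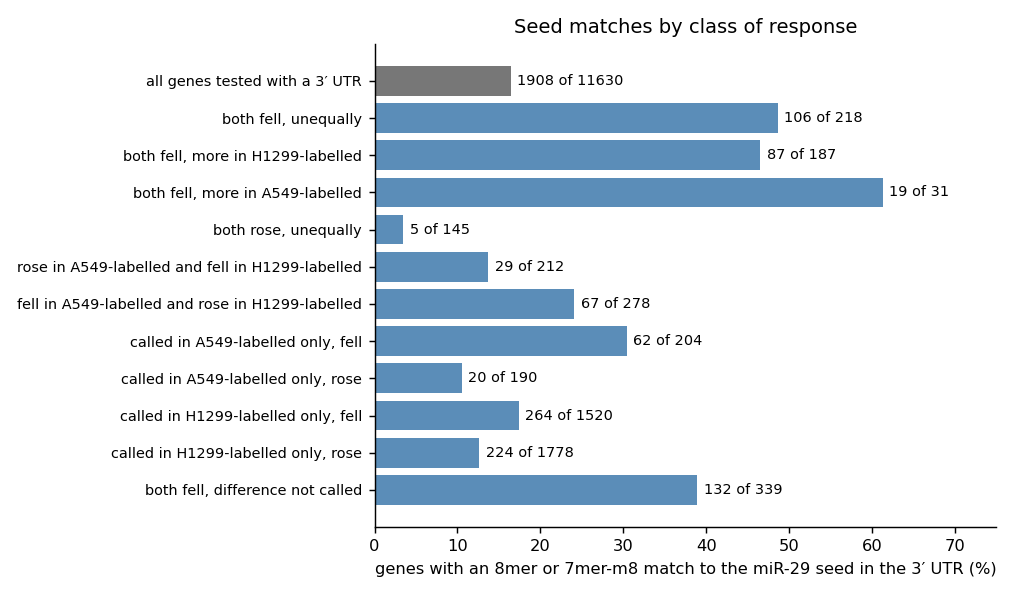
Bars give the percentage of genes in each class of response with an 8mer or 7mer-m8 match to the miR-29 seed in the 3′ UTR, with the counts beside them. Genes that fell in both lines hold a match in 48.6% (unequal falls) and 38.9% (difference not called), against 16.4% of all genes tested with a 3′ UTR.

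YAP and TEAD targets are read-outs of cell contact and tension. Their response was called higher in A549-labelled for 12 of 21 and in H1299-labelled for 5, with a median of 0.80. CCN1, the matricellular protein CYR61, read 72.7 and 73.7 FPKM in the A549-labelled controls, 71.5 and 71.4 with miR-29a-3p there, 92.05 and 91.01 in the H1299-labelled controls and 19.4 and 18.6 with miR-29a-3p there, a difference of 2.17 ± 0.054 (limma adjusted p = 1.44e-05). The A549-labelled libraries lay within a narrow range while the H1299-labelled level fell. AMOTL2 and ANKRD1 differed by 2.19 ± 0.23 and 2.19 ± 0.28, and CCN2 by 1.26 ± 0.087. NT5E, the ecto-nucleotidase CD73, went against them: it read 144 and 145 FPKM in the A549-labelled controls, 155 and 166 with miR-29a-3p there, 15.9 and 16.6 in the H1299-labelled controls and 70.7 and 68.4 with miR-29a-3p there, a difference of -1.89 ± 0.070. YAP1 itself differed by -0.27 ± 0.057.

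Immediate early genes were tested for 15 of 20: 9 higher in A549-labelled, 2 in H1299-labelled, median 0.64 (0.26 with no filter). DUSP1, a phosphatase that shuts off p38 and JNK, read 20.2 and 23.5 FPKM in the A549-labelled controls, 28.8 and 29.3 with miR-29a-3p there, 422 and 413 in the H1299-labelled controls and 83.5 and 87.7 with miR-29a-3p there, a difference of 2.67 ± 0.10. KLF4, IER3 and JUN, early transcription and survival genes, differed by 1.09 ± 0.078, 1.16 ± 0.099 and 0.64 ± 0.072. DUSP6, a phosphatase of ERK, went the other way (-1.21 ± 0.17). EGR1 rose in both, by 1.19 and 1.28, with no called difference (-0.095 ± 0.12).

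The list with FDXR, CCNG1 and CDKN1A held 24 genes, all tested. Their response was called higher in H1299-labelled for 15 and in A549-labelled for 4, with a median of -0.69. FDXR, a ferredoxin reductase of mitochondria, read 1.89 and 1.87 FPKM in the A549-labelled controls, 1.86 and 1.67 with miR-29a-3p there, 4.39 and 4.18 in the H1299-labelled controls and 16.8 and 17.1 with miR-29a-3p there, a difference of -1.82 ± 0.082 (limma adjusted p = 6.67e-05). POLH, a polymerase that bypasses damage, read 8.26 and 8.25 FPKM in the A549-labelled controls, 6.15 and 5.76 with miR-29a-3p there, 3.20 and 3.04 in the H1299-labelled controls and 10.02 and 10.8 with miR-29a-3p there, a difference of -1.88 ± 0.084. FAS, the death receptor, read 1.96 and 2.14 FPKM in the A549-labelled controls, 2.79 and 2.80 with miR-29a-3p there, 3.10 and 3.93 in the H1299-labelled controls and 12.7 and 13.1 with miR-29a-3p there, a difference of -1.31 ± 0.13. CDKN1A, the inhibitor p21, fell in one line and rose in the other, from 27.8 and 28.5 to 16.9 and 16.3 FPKM and from 92.04 and 93.2 to 114 and 111 FPKM. Among the 4 on the other side were TNFRSF10B and GDF15, with differences of 1.16 ± 0.061 and 1.88 ± 0.17.

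Aldehyde dehydrogenases and aldo-keto reductases were tested for 19 of 21 entries, with AKR1C3 under 2 identifiers. Their response was called higher in H1299-labelled for 10 and in A549-labelled for 2, median -0.42 (-0.24 with a mean of at least 5 FPKM). AKR1B10, a retinal reductase, read 55.1 and 60.6 FPKM in the A549-labelled controls, 60.6 and 57.1 with miR-29a-3p there, 86.04 and 85.8 in the H1299-labelled controls and 237 and 233 with miR-29a-3p there, a difference of -1.42 ± 0.078. ALDH1A3 and ALDH1B1 fell in A549-labelled and rose in H1299-labelled cells (-1.73 ± 0.11 and -1.60 ± 0.094). This list shares 5 genes with the markers that went against the labels.

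NRF2 antioxidant targets were mixed. Of 24, all tested, 8 had a response called higher in A549-labelled and 6 in H1299-labelled, beside 18.1% and 19.2% of all genes. The list median was 0.19. OSGIN1 read 8.80 and 8.37 FPKM in the A549-labelled controls, 18.05 and 17.4 with miR-29a-3p there, 8.19 and 8.19 in the H1299-labelled controls and 5.76 and 5.79 with miR-29a-3p there, a difference of 1.41 ± 0.068. FTL and FTH1, the ferritin chains, differed by 0.56 ± 0.081 and 0.73 ± 0.078. GCLM, of glutathione synthesis, went the other way (-0.75 ± 0.11) from its partner GCLC (0.54 ± 0.084). NQO1 and SRXN1 rose in both lines with no called difference, at 0.060 ± 0.060 and 0.071 ± 0.077.

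Junction and other epithelial genes were tested for 16 of 23: 8 higher in A549-labelled, 2 in H1299-labelled, median 0.26 (0.062 with no filter and 0.65 over the 7 genes tested with no pseudocount), with CLDN1 far ahead of OCLN (0.79 ± 0.12), TJP1 (0.57 ± 0.077) and TJP3 (0.997 ± 0.11). EPCAM and CLDN4 were under the filter. Keratins, 8 of 15 tested, had 3 higher in each line, and KRT8, which fell in A549-labelled and rose in H1299-labelled cells, read 25.6 and 25.8 FPKM in the A549-labelled controls, 18.97 and 16.6 with miR-29a-3p there, 34.8 and 30.3 in the H1299-labelled controls and 75.3 and 85.99 with miR-29a-3p there, a difference of -1.80 ± 0.14. Mesenchymal genes, 15 of 15 tested, had 3 with a response called higher in A549-labelled and 5 in H1299-labelled, beside 18.1% and 19.2% of all genes. Their median was -0.027, a sign that turned in 3 of the settings tried. ACTA2, smooth muscle actin, read 1.76 and 1.49 FPKM in the A549-labelled controls, 1.84 and 1.80 with miR-29a-3p there, 6.89 and 6.92 in the H1299-labelled controls and 23.3 and 24.2 with miR-29a-3p there, a difference of -1.54 ± 0.091, while AXL, a receptor kinase, fell in both lines (-0.66 and -1.48, a difference of 0.82 ± 0.054).

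Of 13 mitochondrially encoded messages 11 had a response called higher in H1299-labelled and 0 in A549-labelled, with a median of -0.48. After quantile normalisation 6 were higher in H1299-labelled and 1 in A549-labelled, and with no filter on low values 7 and 0. MT-ND6, the one gene on the other strand of the mitochondrial genome, read 203 and 219.8 FPKM in the A549-labelled controls, 188 and 187 with miR-29a-3p there, 115 and 96.7 in the H1299-labelled controls and 245 and 231 with miR-29a-3p there, a difference of -1.34 ± 0.12.

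Of 13 genes for proteins that make and use microRNAs, 3 had a response called higher in A549-labelled and 1 in H1299-labelled. The shares of all genes tested were 18.1% and 19.2%, and the list median was 0.18. XPO5, which exports precursors from the nucleus, fell in both lines and read 17.5 and 17.2 FPKM in the A549-labelled controls, 13.5 and 12.2 with miR-29a-3p there, 7.68 and 7.70 in the H1299-labelled controls and 3.33 and 3.36 with miR-29a-3p there, a difference of 0.59 ± 0.081. AGO2, the slicing Argonaute, also fell in both (-0.27 and -0.74), a difference of 0.47 ± 0.085. DICER1, DROSHA and AGO1 had no called difference, at -0.024 ± 0.12, -0.18 ± 0.076 and -0.0055 ± 0.069. The level of miR-29a-3p itself was not analysed here.

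Common reference genes differed in part. Of 14, 6 had a response called higher in H1299-labelled and 1 in A549-labelled, beside 19.2% and 18.1% of all genes, median -0.22. Without A549-labelled miR-29a-3p replicate 1 the median was -0.11, with 2 higher in A549-labelled. HPRT1 read 41.2 and 41.05 FPKM in the A549-labelled controls, 35.8 and 32.5 with miR-29a-3p there, 13.98 and 12.9 in the H1299-labelled controls and 29.1 and 23.7 with miR-29a-3p there, a difference of -1.18 ± 0.14, and GAPDH differed by -0.35 ± 0.052. RPLP0 and GUSB had no called difference, at 0.064 ± 0.12 and -0.16 ± 0.11.

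**Figure D4:**
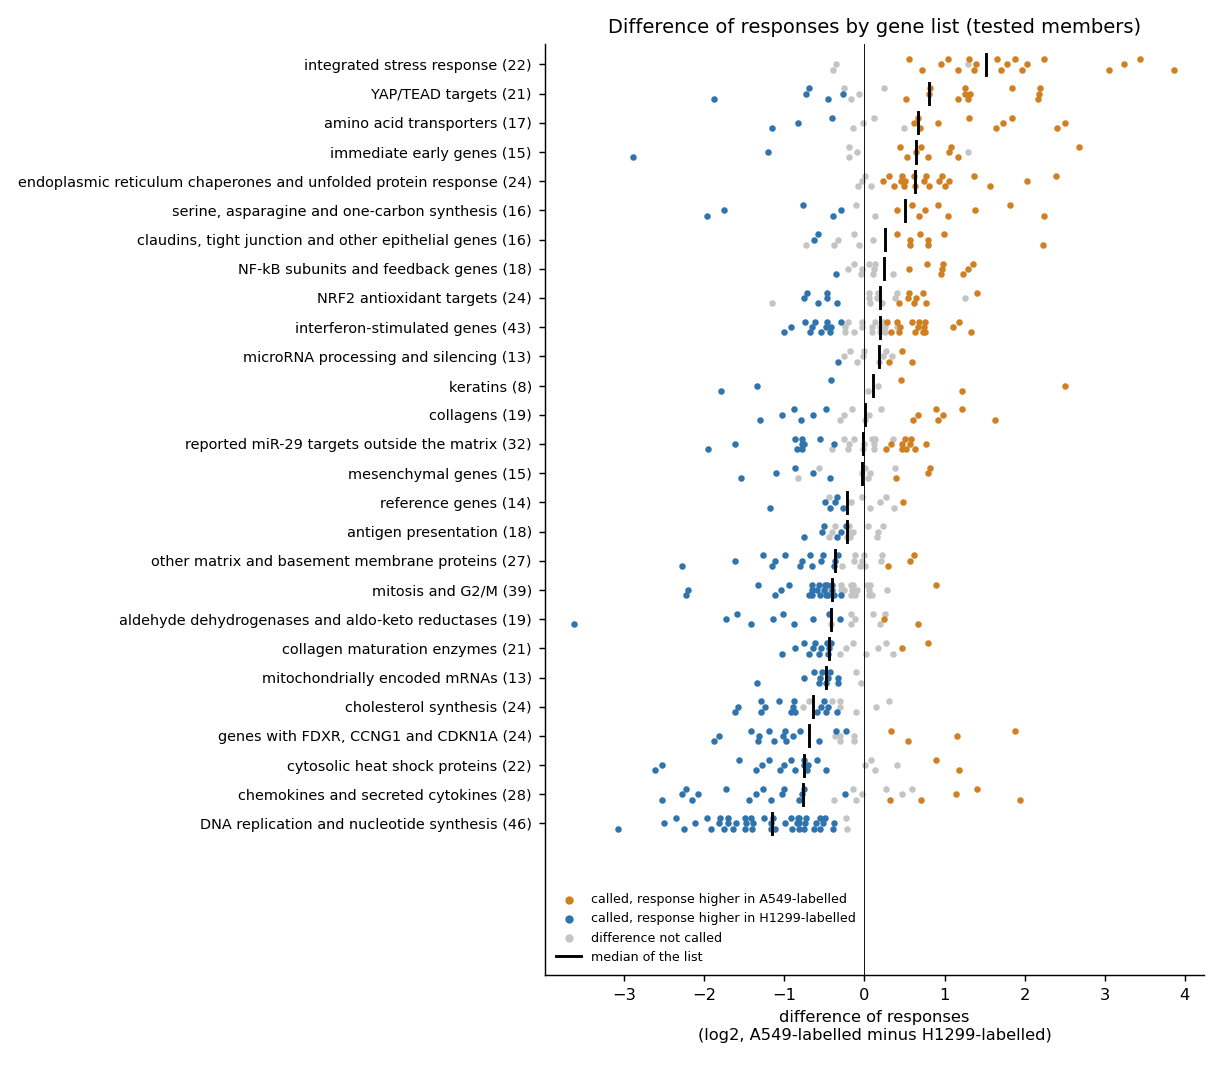
Each point is a tested member of a gene list, placed by its difference of responses (log2, A549-labelled minus H1299-labelled), coloured by its call, with the list median as a black bar and the number tested in brackets. The integrated stress response stands highest with a median of 1.52 and DNA replication lowest with -1.15.

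The same difference can be read as a change in the gap between the lines, A549-labelled minus H1299-labelled on the log2 scale, since both use the same values. The lines came closer with miR-29a-3p for 55.0% of all genes tested, 58.3% of the genes with a called difference and 60.9% of those with at least 2-fold, whose median gap size went from 1.23 to 0.88. The median gap of the stress list went from -1.26 to 0.054, with 19 of 22 genes closer. For DNA replication it went from 1.87 to 0.87, with 45 of 46 closer. For cholesterol synthesis it went from 1.43 to 0.75 with 23 of 24 closer, and for ER chaperones from -0.999 to -0.24 with 22 of 24 closer.

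In other lists the median gap grew. The median gap of aldehyde dehydrogenases and aldo-keto reductases went from -0.56 to -1.94, that of the FDXR list from -0.78 to -1.55 and that of chemokines from -1.01 to -1.68. The lines still came closer for 8 of 19, 6 of 24 and 10 of 28 genes of these lists. In the first list the median difference per gene was -0.42, less than the move of its median gap. YAP and TEAD targets changed side, from -0.12 to 0.61, and so did NF-kB genes, from -0.51 to 0.25. These gaps describe the same measurements and are no separate evidence.

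**Figure D5:**
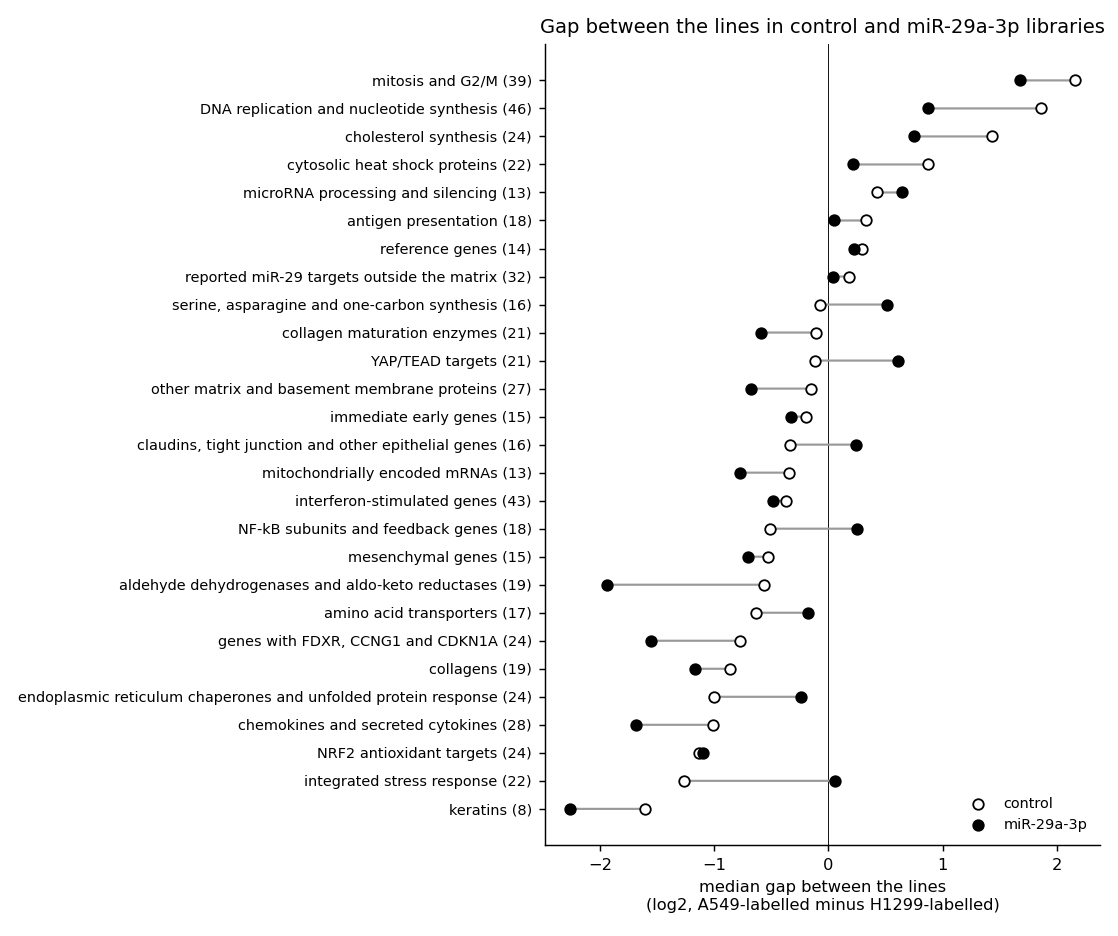
Median gap between the lines (log2, A549-labelled minus H1299-labelled) in control (open) and miR-29a-3p libraries (filled) for each list, with the number of tested genes in brackets. The gap of the integrated stress response goes from -1.26 to 0.054 and that of DNA replication from 1.87 to 0.87, while aldehyde dehydrogenases and aldo-keto reductases go from -0.56 to -1.94.

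A fall from a level near 0 is not detectable, so the calls were also split by control level. Where both lines had at least 1 FPKM in the controls, 10701 genes, a difference was called for 39.1%, 2237 higher in A549-labelled and 1944 higher in H1299-labelled. Where the A549-labelled controls alone were under 1 FPKM, 1267 genes, it was 41.8%, 328 and 201. Where the H1299-labelled controls alone were under 1 FPKM, 1943 genes, it was 25.1%, 46 and 441. Where both were under, 724 genes, it was 36.9%, 39 and 228.

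A set of 570 genes passed the filter through 1 group alone, both of its libraries being at 1 FPKM or more and no other. Of these 116 were called higher in A549-labelled and 227 higher in H1299-labelled, and since they are high in 1 group by the filter, no weight is put on that count. The gene just inside the filter was SEC14L1P1, at 1.0005 FPKM in its second-highest library, and the gene just outside was C14orf93, at 0.9998 FPKM. On the side of the call, NAGK had a limma adjusted p of 0.04998 and SLC25A1 one of 0.05001, with differences of 0.33 and -1.05.

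By type of gene in GENCODE release 29, a difference was called for 40.6% of 11788 protein-coding genes, 26.2% of 520 long intergenic RNAs, 23.4% of 589 antisense RNAs and 19.5% of 841 processed pseudogenes. Antisense RNAs called were 95 higher in A549-labelled and 43 higher in H1299-labelled. Whether their reads were told from those of overlapping genes is not known, since the strand setting is not given. Pseudogenes share reads with their parent genes, so these types are uncertain one by one.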

How the data were processed

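The series holds 8 libraries of total RNA, extracted with TRIzol and prepared with the VAHTS Universal V6 kit per the labels' protocols. The deposited tables give FPKM per gene, 1 table per line, made by the authors with StringTie on GRCh38 per the submitters' processing notes; the sources used here do not give versions, aligner, annotation or strand setting. FPKM is scaled to library depth and gene length, so no count test was used and the normalised form of the planned test applied. The tables were joined by gene identifier, a gene absent from 1 table being taken as 0. Genes were kept where 2 or more libraries reached 1 FPKM, and log2(FPKM + 1) was fitted with 1 mean per group in limma 3.58.1 (R 4.3.3), with a variance trend, 4 residual and 2.36 prior degrees of freedom. A fold change on this scale understates the change of low genes. The difference of responses was tested two-sided, with Benjamini-Hochberg adjustment over all genes and a threshold of 0.05. The fit was also run on simulated data with independent normal noise and few changed genes. That setting differs from these data, so it does not measure the error rates here.

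Depth was estimated from the steps of low FPKM values. Within 0.02 of a whole number, 38.2% to 42.1% of values came out whole over all genes and 87.1% to 93.1% over genes with 1 transcript, so no counts were recovered. Replicates differed by more than sampling noise. The main fit did not pair libraries by replicate number. Deviations of same-numbered libraries correlated by -0.0367 to 0.0625 over 14635 genes. That shows no clear shared shift, but it cannot tell whether same-numbered libraries were handled together.

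Members, gene lists and tests were chosen with earlier results of these data known. Named genes are the 10 highest and 10 lowest by difference among genes called, at 5 FPKM or more in 1 group and without overlap between control and treated libraries in at least 1 line. To these were added 6 each way called in opposite directions, 5 each way in the same direction and up to 4 per list by size. Other list members were named after their values were seen, to describe the lists. Seed matches were searched in the longest protein-coding 3′ UTR of each gene in GENCODE release 29, in which 31105 of the genes were found. Alternatives covered pseudocount, filter, scaling between libraries, variance model, replicate block and each library left out.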

Additional observations from a re-analysis of the deposited data

Results flagged for a closer look

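A group of 551 genes stood out because the responses in the 2 lines were called in opposite directions and the difference itself was called (limma, Benjamini-Hochberg adjusted). The genes with the largest weaker response were taken as examples. Those that rose in A549-labelled and fell in H1299-labelled cells were DDIT3, with a difference of 3.44 on the log2 scale, PPP1R15A with 3.24, SLC9A3-AS1 with 3.18, RHOB with 2.37, TMEM251 with 2.16 and HES4 with 2.10. Those that fell in A549-labelled and rose in H1299-labelled cells were PCLAF with -2.39, THBS1 with -2.28, MYBL2 with -2.21, ID1 with -2.07, GINS2 with -1.81 and SERPINE2 with -1.70. Each of the 12 genes kept its sign and its call in the alternatives that tested it.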

How the results depend on the processing

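Of 5464 genes with a called difference, 5051 kept the call with a pseudocount of 0.1, 5251 after rescaling by -0.11 to 0.10 per library, 5186 after quantile normalisation, with 1 call reversed, and 5325 without a variance trend. The share of calls higher in A549-labelled ran from 44.7% (rescaled) to 53.6% (no pseudocount), beside 48.5%. With a pseudocount of 0.1, 1822 genes had at least a 2-fold difference, beside 977. Without a filter, 348 genes were called in opposite directions and 245 in the same direction. With a mean of at least 5 FPKM fewer genes were tested, and 2984 were called, 1542 higher in A549-labelled and 1442 higher in H1299-labelled, 536 at least 2-fold and 2138 called in 1 line.

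Without 1 library at a time the total was 4426 to 4646, with 2129 to 2246 higher in A549-labelled and 2292 to 2436 higher in H1299-labelled, 978 to 1008 at least 2-fold, 221 to 404 in opposite directions, 3524 to 3918 in 1 line and 165 to 255 in the same direction; the lone library of a group is then assumed to vary like the others. With the replicate block the total was 5202, with 2512 higher in A549-labelled and 2690 higher in H1299-labelled, 972 at least 2-fold, 440 in opposite directions, 4170 in 1 line and 324 in the same direction, and 5016 of the 5464 calls were shared.

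Of 123 named genes called, 115 kept the call in every alternative that tested them and 0 were reversed. The 8 others were COL5A2, LUM, DGCR8, IER2, MT-ATP8, PIK3R1, PSMB10 and TGOLN2, with limma adjusted p up to 0.237; PSMB10 was the one lost with the replicate block. The cause was not tested. At 1 FPKM or less the values rest on few fragments, and a fall from there is not detectable.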
